A study of Mus musculus with 4 samples.

Results

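The high-sulfur keratin-associated proteins were taken as every gene whose symbol starts with *Krtap*, leaving out the 8 subfamilies rich in glycine and tyrosine (*Krtap6*, *Krtap7*, *Krtap8*, *Krtap16*, *Krtap19*, *Krtap20*, *Krtap21* and *Krtap22*). This left 40 genes in 19 numbered subfamilies, of 32286 features in all. They held 1543131 of 91815705 unique molecular identifiers (UMIs, each counting 1 captured RNA molecule), or 1.68%. The 17 high-glycine-tyrosine *Krtap* genes held 1.24%.

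Spatial transcriptomics (Visium) was performed on back skin collected at P38. The mice carried *Krox20-CreERT* together with *R26-tdTomato*, and 4-hydroxytamoxifen had been given at P2. In this knock-in, CreERT follows the expression of *Krox20* and leaves a tdTomato label in the recombined cells and their progeny. All 4 slices shared this genotype, treatment and age, so regions of the tissue were compared and no treated group was set against a control. Each slice carried 1 fresh-frozen section from each of the same 3 mice and served as a technical replicate. The SD between slices (n = 4) and the p-values below cover the spread between slices and not that between animals. The study set aside 1 further section of distorted structure, and its figure legend also speaks of 4 skin samples. Whether that section came from another mouse is not stated. Since its spots could not be told from the rest, all spots were used here.

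Keratin-associated proteins form the matrix in which the keratin filaments of the hair shaft are embedded, and disulfide bonds through their cysteines cross-link that matrix. They are classed by their cysteine content into high-sulfur and ultrahigh-sulfur proteins, beside the glycine- and tyrosine-rich class. Their genes are small, have a single exon and lie in clusters. *Krtap1*, *Krtap2*, *Krtap3*, *Krtap4* and *Krtap9* proteins are known from the cortex of the hair shaft, and *Krtap5* and *Krtap10* proteins from its cuticle.

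The slices held 19393026 to 26910422 UMIs over 1462 to 1752 spots, and the median spot held 11662 to 14627 UMIs. Slice 1 stood apart: the members took 2.06% of its UMIs and 1.46 to 1.59% in the other slices. Of the 32 members with more than 100 UMIs, 27 had a larger share of UMIs in slice 1 than on average in the others, with a median ratio of 1.34 over the 32. The ratios ran from 0.458 for *Krtap5-5* to 2.08 for *Krtap31-1*. A spot is a small area that can hold several cells, so a lower level in a region can reflect fewer expressing cells or less RNA per cell, which cannot be told apart. Of 2485 distinct spot barcodes, 1842 occurred in more than 1 slice, since barcodes mark positions on the slide.

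Spots were clustered without any *Krtap* gene and clusters were called by the markers they held: interfollicular epidermis (IFE)-like (822 spots), upper hair follicle (HF)-like (835, from 2 clusters), outer root sheath (ORS)-like (978), matrix and hair shaft-like (657; matrix-like hereafter), melanocyte-like (398) and muscle-like (768). The marker list of the upper HF includes sebaceous gland genes. Of its clusters, that of 560 spots was led by *Atp12a*, *Plet1* and *Car6*, and that of 275 spots held lipid genes of the sebaceous gland among its leading genes (*Fa2h*, *Far2*, *Cidea*, *Scd3* and *Elovl6*). The matrix-like region was led by *Krt32*, *Capn12*, *Krt87*, *Krt83*, *Krt33a* and *S100a3*, with no cell cycle gene among its 10 leading genes. The cell cycle genes *Pbk*, *Cdk1*, *Top2a* and *Ccna2* were among those of the unnamed cluster 6 (481 spots). The short name matrix-like therefore does not stand for the proliferating hair matrix. A cluster of 666 spots stayed unnamed and is called by its leading gene, the *Gm11596* cluster. Of its 10 leading genes, 7 are unnamed genes within 100000 bases of a *Krtap* gene. Its summed inner root sheath markers stood at 56978 to 68950 UMIs per 1000000 of the region's UMIs (CPM), a range that overlaps the 65010 to 70526 CPM of the matrix-like region. One unnamed cluster (cluster 9, 275 spots) came to 96.0% from slice 1, and slice 1 gave 7.87% of the ORS-like spots. All these region names were given after the clusters were seen.

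The coding sequences showed how far the members differ. All 40 lie in a single exon and have 98 to 367 codons (median 180). Codons for cysteine (TGT and TGC) made up 4.00 to 42.9% of them, with a median of 30.4%, against 8.14% over the high-glycine-tyrosine genes. The first 150 bases of 4 members and of 1 high-glycine-tyrosine gene (GENCODE M21, GRCm38) are shown, since the members behave differently along the hair. Cysteine codons are in capitals.
Krtap11-1: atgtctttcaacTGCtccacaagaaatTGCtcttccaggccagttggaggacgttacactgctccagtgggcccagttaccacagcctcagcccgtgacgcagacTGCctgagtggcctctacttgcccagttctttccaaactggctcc
Krtap15: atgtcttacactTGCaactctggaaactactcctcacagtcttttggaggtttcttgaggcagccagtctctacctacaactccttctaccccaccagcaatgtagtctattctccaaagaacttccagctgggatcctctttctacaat
Krtap3-3: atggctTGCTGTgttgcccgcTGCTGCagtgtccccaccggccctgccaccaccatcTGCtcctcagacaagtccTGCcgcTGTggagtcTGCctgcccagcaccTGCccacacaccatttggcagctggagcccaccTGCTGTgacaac
Krtap4-1: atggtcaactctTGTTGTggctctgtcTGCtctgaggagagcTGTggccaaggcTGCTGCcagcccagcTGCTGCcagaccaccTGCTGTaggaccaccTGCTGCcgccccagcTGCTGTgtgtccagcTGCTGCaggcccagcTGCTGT
Krtap19-1: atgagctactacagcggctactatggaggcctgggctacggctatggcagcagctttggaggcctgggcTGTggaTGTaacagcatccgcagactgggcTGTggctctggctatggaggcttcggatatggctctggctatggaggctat

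These stretches hold 3, 1, 11, 18 and 3 cysteine codons in that order. *Krtap11-1* (chr16:89570176-89571183, minus strand) has 12% cysteine codons over its whole length and *Krtap15* (chr16:88820215-88829844, plus strand) has 4.00%. *Krtap3-3* (chr11:99550130-99550865, minus strand) has 20.2% and *Krtap4-1* (chr11:99627224-99628238, minus strand) 38.5%. *Krtap28-13* reached 42.8% and also holds 42% glycine and tyrosine codons, and *Krtap17-1* holds 35.8% and 34.9%. *Krtap16-1*, which the rule leaves out by its number, has 20.1% cysteine codons and 3.78% glycine and tyrosine codons.

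The members lie at 5 places in the genome. The locus on chromosome 11 (22 members within 444 kb) gave 60.5% of their UMIs, and that on chromosome 16 (8 members within 960 kb) gave 35.7%. Single genes on these loci differed widely. *Krtap15* alone held 252724 UMIs (16.4% of the members' total) and *Krtap14* 153397 (9.94%). These 2 genes overlap on opposite strands, and the sources used here do not state whether counting used the strand, so their reads may be mixed. By number, *Krtap4* (8 genes) held 18.7%, *Krtap3* (3 genes) 17.1%, *Krtap9* (3 genes) 9.26%, *Krtap1* (3 genes) 9.02% and *Krtap11* (1 gene) 6.57%. The 5 *Krtap5* genes together held 0.778%. At the other end, 8 members had 100 UMIs or fewer: *Krtap4-13* had 50, *Krtap27-1* 27, *Krtap5-3* 17, *Krtap1-4* 9, *Krtap29-1* 4, *Krtap5-1* and *Krtap9-5* 3 each, and *Krtap13* 2. These 8 did not pass the filter on low counts in any comparison below. Of the 40 members, 30 had at least 80% of their 90-base stretches in no other gene's transcript. This share was 33.9% for *Krtap4-13*, 62.9% for *Krtap5-1* and 82.1 to 100% for the rest of the 8. It was 62.3% for *Krtap3-3* and 61.2% for *Krtap2-4*. Reads from shared stretches can be lost or split in counting, so UMI totals may understate such members. This was not tested.

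The promoter table (RefSeq, GRCm38.p6; 250 bases before to 50 after the start) matched 35 of the 40 members. The letters TATAAA were found on the gene's strand in 30 of these 35 (85.7%), against 8.32% of all 32851 promoters, and in 12 of 16 high-glycine-tyrosine genes. Within 50 bases before the start, 25 of 35 (71.4%) held them, against 2.63% of all. The letters CTTTGAA, searched on both strands, were found in 7 of 35 (5.14% of all promoters hold them), and CCAAT on both strands in 15 (42.9% against 37.4%). The 100 bases before the start of the members with opposite patterns among the regions below are shown, *Krtap11-1* (chr16:89571184-89571283, minus strand) and *Krtap4-1* (chr11:99628240-99628339, minus strand), with TATAAA in capitals.
Krtap11-1: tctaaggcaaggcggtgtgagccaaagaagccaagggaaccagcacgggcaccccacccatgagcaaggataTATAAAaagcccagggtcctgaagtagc
Krtap4-1: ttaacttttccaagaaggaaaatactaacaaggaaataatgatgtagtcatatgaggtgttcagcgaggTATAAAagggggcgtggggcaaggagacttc

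In these windows TATAAA begins 28 and 31 bases before the start. *Krtap14*, *Krtap15* and *Krtap3-3* have none in the searched window, which says nothing of how they are controlled.

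The members together were highest in the *Gm11596* cluster, at 71340, 58827, 65564 and 55167 CPM in slices 1 to 4 (62724 ± 7178, SD, n = 4). The matrix-like region held 31061, 22608, 19704 and 19662 CPM (23259 ± 5381), and the ORS-like region 26656, 19075, 20784 and 21110 CPM (21906 ± 3290). The *Gm11596* cluster exceeded both regions in every slice, and the last 2 overlapped. IFE-like spots held 8152 ± 2339 CPM, upper HF-like spots 8638 ± 2572 CPM and muscle-like spots 7611 ± 1723 CPM, which overlapped with each other. The lowest levels were in melanocyte-like spots (3320 ± 115 CPM) and in cluster 6 (2490 ± 464 CPM), led by *Mt2*, *Top2a* and *Cdk1*. Of the 32 members above 100 UMIs, 28 had their highest mean level among the named regions and clusters in the *Gm11596* cluster, and *Krtap11-1*, *Krtap13-1*, *Krtap24-1* and *Krtap26-1* had it in the matrix-like region.

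**Figure D1:**
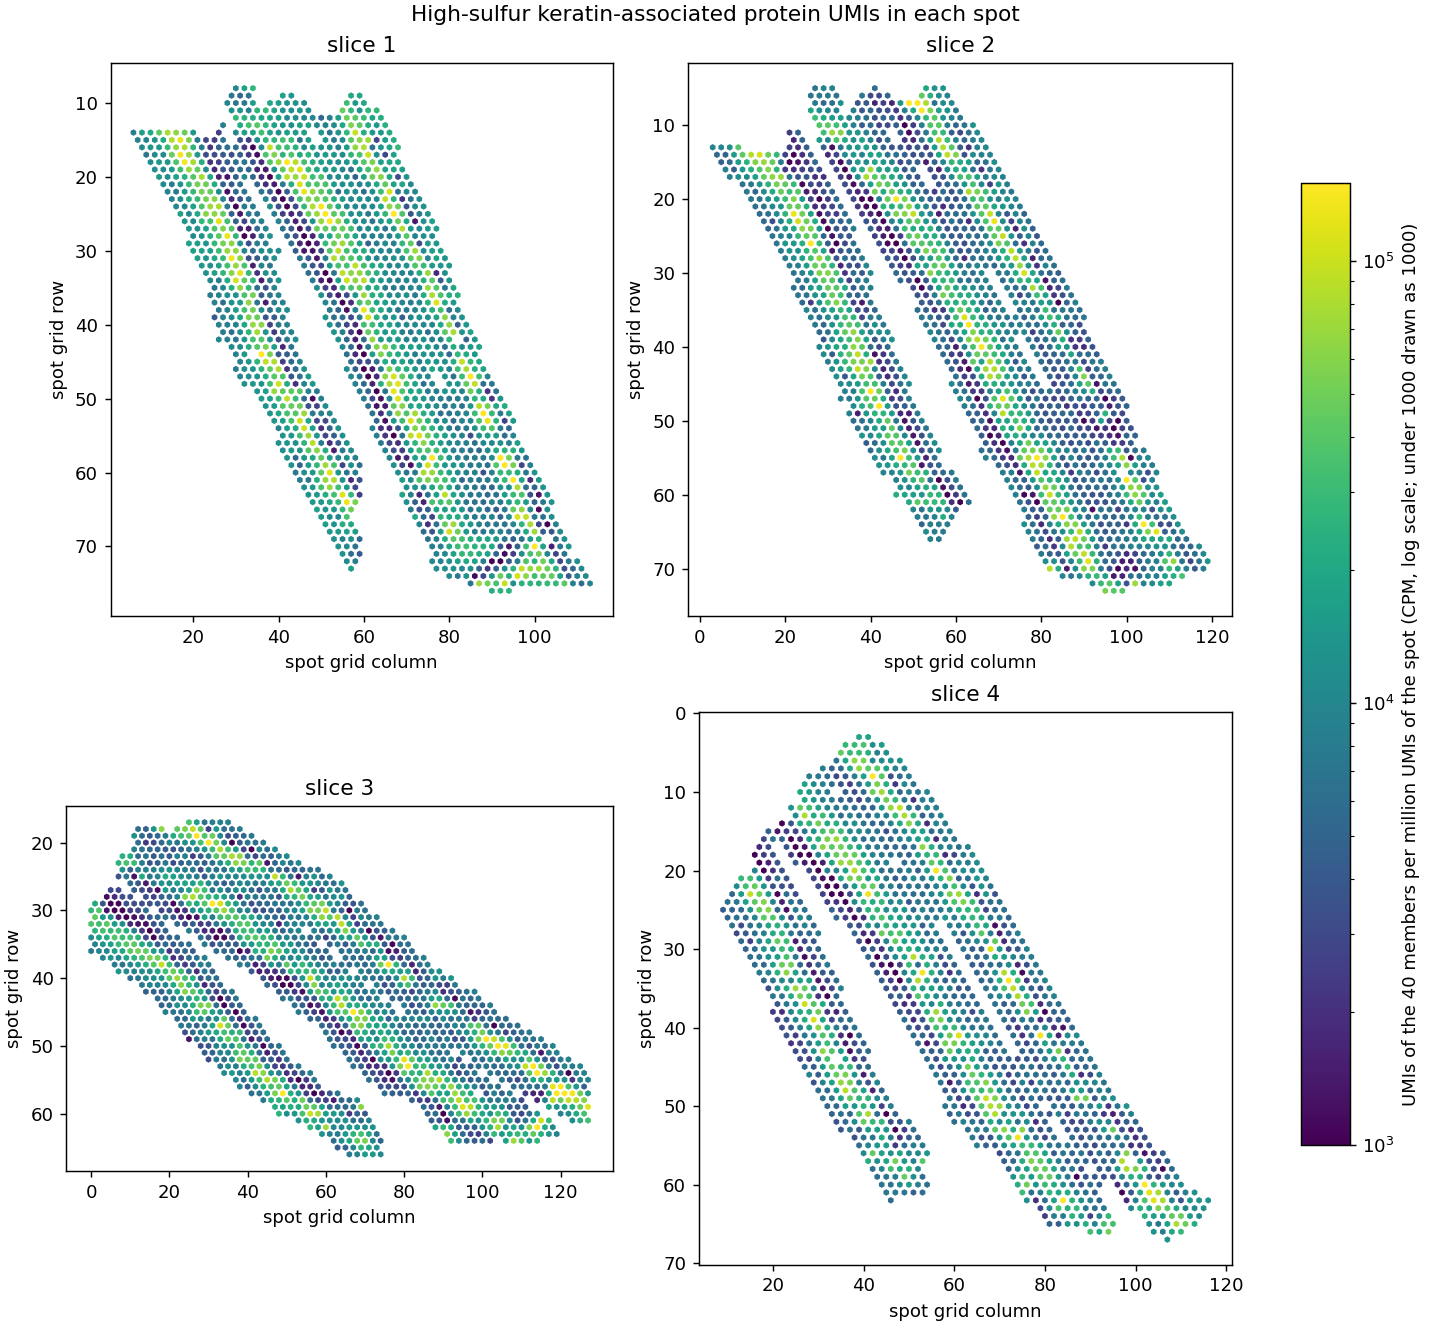
CPM of the 40 members (color, log scale, values under 1000 drawn as 1000) in each spot of the 4 slices, with axes in rows and columns of the spot grid. The high spots form narrow bands along each section in all 4 slices.

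Some member RNA was counted nearly everywhere, so a UMI in a spot did not by itself show expression there. *Krtap15* had a UMI in 99.7% of muscle-like spots and *Krtap11-1* in 99.2%. With each spot thinned to 5500 UMIs, these shares were 98.8 and 94.2% (16 shallower muscle-like spots, 26 matrix-like spots and 41 spots of the *Gm11596* cluster were left out). *Krtap28-13* had a UMI in 38.1% of muscle-like spots and 41.4% of matrix-like spots, or 18.6 and 24% after thinning. In the *Gm11596* cluster its shares were 88.0 and 75.7%. The median depths of these regions were 14097, 15191 and 12123 UMIs a spot.

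**Figure D2:**
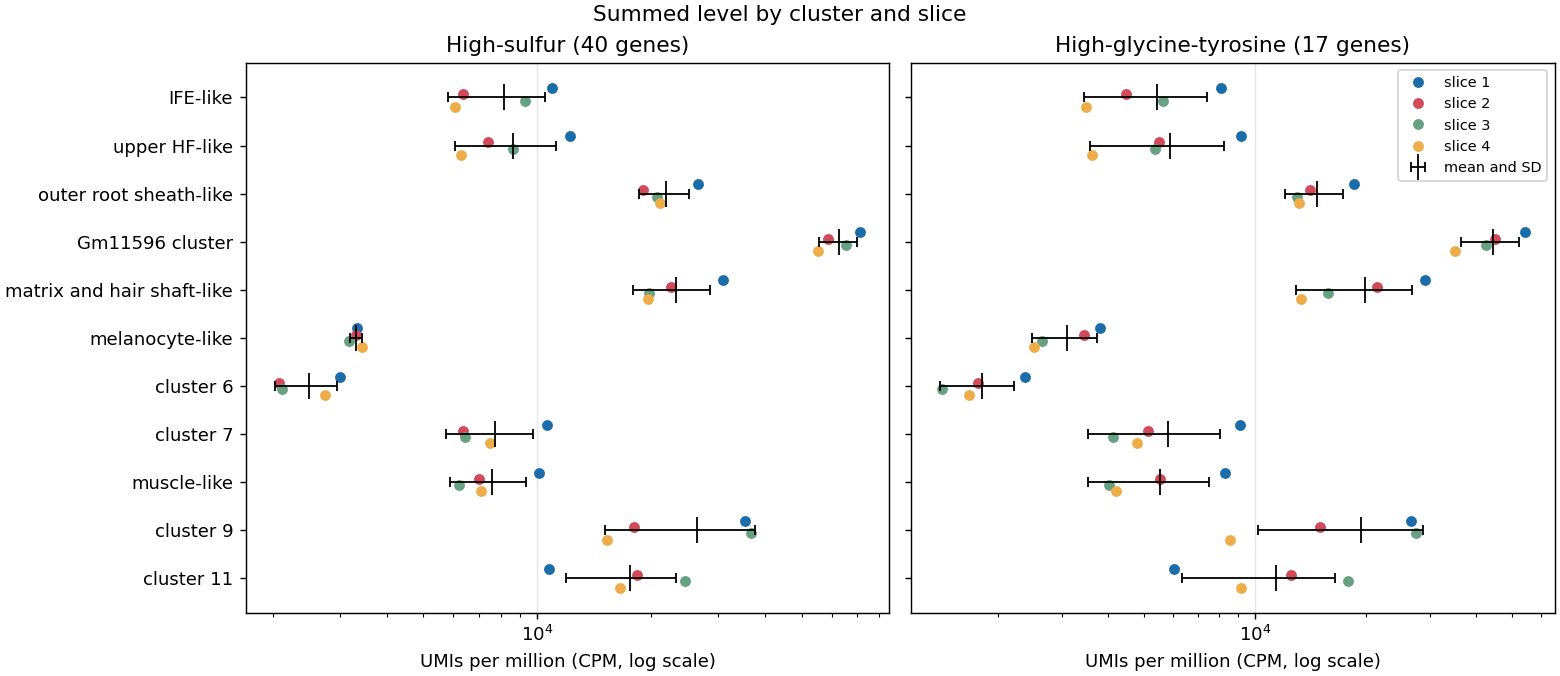
Summed CPM (log axis) of the 40 high-sulfur and the 17 high-glycine-tyrosine genes in each region or cluster, with 1 colored point per slice and black marks for mean and SD. In both panels the *Gm11596* cluster is highest in every slice, and the matrix-like and ORS-like points overlap.

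The outer root sheath surrounds the growing hair and does not build the shaft. The ORS-like spots were named with 5 of 10 listed markers raised and cannot be read as outer root sheath alone. Against the ORS-like region, counts summed per slice and region were tested with edgeR's quasi-likelihood test over 12360 genes, 32 of the members among them. In the matrix-like region 7 members were higher (24.3% of all genes were) and 16 lower (26.5% of all genes were), at adjusted p under 0.05. The median log2 fold change was -0.38 over the members and -0.03 over all genes. The summed outer root sheath markers stood at 18534 to 20006 CPM in the ORS-like region and 5799 to 6745 CPM in the matrix-like region. Matrix and hair shaft markers stood at 7370 to 11370 CPM and 29243 to 39879 CPM in that order. Inner root sheath markers stood at 26447 to 29050 CPM and 65010 to 70526 CPM, and fibroblast markers at 8329 to 9031 CPM and 1259 to 2038 CPM. Their part in the results was not tested.

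The 7 higher members were *Krtap11-1*, *Krtap13-1*, *Krtap24-1*, *Krtap26-1*, *Krtap17-1*, *Krtap14* and *Krtap15*, of which all but *Krtap17-1* lie on chromosome 16. *Krtap11-1* stood at 4465, 3907, 3776 and 3970 CPM in the matrix-like region of slices 1 to 4 and at 878, 668, 639 and 594 CPM in the ORS-like region. Every slice of the first was above every slice of the second, with a log2 fold change of 2.75 (SE 0.21, adjusted p = 4.5e-13). *Krtap13-1* stood at 1051, 875, 660 and 541 CPM against 252, 206, 166 and 121 CPM (log2 2.32, SE 0.33, adjusted p = 3.2e-07). *Krtap26-1* ran from 406 to 525 CPM against 113 to 180 CPM (log2 1.89), and *Krtap24-1* from 103 to 192 CPM against 31.6 to 62.6 CPM (log2 1.96). For these 3 members, too, the slices of the regions did not overlap. *Krtap15*, the most abundant member, differed less, at 5958, 5178, 4111 and 3546 CPM against 4039, 3297, 3305 and 3275 CPM. Its log2 fold change was 0.66 (SE 0.20, adjusted p = 0.0072), and without slice 2 the call was lost (log2 0.58, adjusted p = 0.069). It was also lost with clusters from all genes (log2 0.23), with clusters built without hair keratins (0.33), without the spot filter (0.24), at a resolution of 0.6 (0.21) and with cluster 9 joined to the ORS-like region (0.50), at adjusted p of 0.061 to 0.37. *Krtap14* gave 4100, 2668, 2462 and 2083 CPM against 2412, 1737, 2026 and 1708 CPM, where the lowest matrix-like slice fell below the highest ORS-like one (log2 0.75, SE 0.23, adjusted p = 0.0066). The same 5 settings took away its call (log2 0.23 to 0.54, adjusted p = 0.074 to 0.38), so neither call held under every clustering. *Krtap17-1* gave 1030, 821, 702 and 770 CPM against 542, 465, 474 and 521 CPM (log2 0.96, SE 0.17, adjusted p = 2.2e-05).

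The 16 lower members took in all 7 tested *Krtap4* genes, *Krtap9-1*, *Krtap2-4*, both *Krtap28* genes, the 3 tested *Krtap5* genes and both *Krtap31* genes. *Krtap4-1* stood at 442, 283, 333 and 470 CPM in the matrix-like region and at 1235, 927, 1092 and 1257 CPM in the ORS-like region. These groups did not overlap (log2 -1.35, SE 0.16, adjusted p = 1.2e-08). *Krtap5-4*, of a cuticle subfamily, stood at 43.0, 25.5, 31.0 and 40.4 CPM against 128, 102, 139 and 126 CPM (log2 -1.59, adjusted p = 1.9e-08). *Krtap9-1* was at 463, 223, 268 and 388 CPM against 1358, 782, 959 and 1060 CPM (log2 -1.41, adjusted p = 1.5e-06). *Krtap2-4*, a cortex member, was at 536, 338, 325 and 383 CPM against 958, 745, 889 and 820 CPM (log2 -0.88, adjusted p = 7.4e-05), again without overlap. *Krtap31-1* was lower too (log2 -1.33, SE 0.38, adjusted p = 0.0042), though its ORS-like level was 208 CPM in slice 1 and 36.8 to 53.2 CPM in the others. The members in neither list were the 3 *Krtap3* genes, *Krtap1-3*, *Krtap1-5*, *Krtap9-3*, *Krtap10-4*, *Krtap10-10* and *Krtap12-1*, with log2 values of -0.28 to 0.37.

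With the slice as a block, 10 members were higher than in the outer root sheath (26.7% of all 12570 genes tested were) and 18 lower (28.2% were). *Krtap12-1*, *Krtap3-1* and *Krtap3-3* (log2 0.22, adjusted p = 0.033) were then higher, and *Krtap1-5* (log2 -0.36, adjusted p = 0.011) and *Krtap10-4* were lower. The coding sequences of *Krtap3-2* and *Krtap3-3* are identical, so reads may be split between them. Their summed level was 2357 ± 753 CPM against 2539 ± 475 CPM. *Krtap31-1* and *Krtap31-2* (98.9% identical) summed to 33.8 ± 11.5 CPM against 130 ± 110 CPM.

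Most members were higher in the *Gm11596* cluster than in the matrix-like region, and *Krtap11-1* was lower. Of the 32 tested, 28 were higher there (16.3% of all 12301 genes tested were), 1 was lower (13.8% were) and 3 did not pass the test, by edgeR's quasi-likelihood test. The median log2 fold change was 2.62 over the members and 0.03 over all genes. The summed outer root sheath markers were higher in the cluster (9721 to 12056 CPM against 5799 to 6745 CPM), and matrix and hair shaft markers (15973 to 28100 CPM against 29243 to 39879 CPM) and melanocyte markers (157 to 240 CPM against 416 to 478 CPM) were lower. Their part in the results was not tested. This comparison was added after the clusters were seen. All 29 of these calls were also made when the unnamed genes near *Krtap* genes were left out of the clustering. In each clustering, though, the cluster was picked as the unnamed one with most of these genes among its 10 leading genes. The pick thus used genes of the same loci, so the shared calls are no independent check.

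*Krtap5-4* was the most unequal named member, at 401, 365, 400 and 307 CPM in the *Gm11596* cluster and 43.0, 25.5, 31.0 and 40.4 CPM in the matrix-like region (log2 3.52, SE 0.19, adjusted p = 1e-16). *Krtap4-1* followed the same direction at 2935, 2859, 3721 and 3165 CPM against 442, 283, 333 and 470 CPM (log2 3.17, SE 0.17, adjusted p = 3.3e-17). *Krtap28-13*, which had nearly the same level in each slice of the cluster, stood at 516, 529, 517 and 500 CPM against 79.8, 49.5, 47.1 and 64.5 CPM (log2 3.20, adjusted p = 5.8e-19). The cortex members *Krtap9-1* (log2 3.23), *Krtap2-4* (log2 2.76), *Krtap1-5* (log2 2.01), *Krtap9-3* (log2 1.67) and *Krtap3-3* (log2 1.62) were also higher. *Krtap15* and *Krtap14* were higher by less, at log2 1.11 and 1.14.

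*Krtap11-1* ran the other way. It stood at 1705, 1174, 1070 and 937 CPM in the *Gm11596* cluster, below all 4 slices of the matrix-like region (log2 -1.58, SE 0.22, adjusted p = 4.7e-07). The 3 members that passed in neither direction also lie on chromosome 16. *Krtap26-1* had 564, 495, 396 and 345 CPM against 525, 503, 425 and 406 CPM (log2 0.08, SE 0.20, adjusted p = 0.80). *Krtap24-1* had a log2 value of 0.07 (adjusted p = 0.86). Both depended on how the spots were clustered. *Krtap26-1* was called higher in the *Gm11596* cluster with clusters built without hair keratins (log2 0.47, adjusted p = 0.043), without the spot filter (0.62, adjusted p = 0.0055) and at a resolution of 0.6 (0.59, adjusted p = 0.012). *Krtap24-1* was called higher without the spot filter (0.63, adjusted p = 0.019) and at a resolution of 0.6 (0.52, adjusted p = 0.049). *Krtap13-1* had 643, 482, 370 and 329 CPM against 1051, 875, 660 and 541 CPM (log2 -0.66, SE 0.32, adjusted p = 0.12), and its call changed with the fit: with the slice as a block its adjusted p was 9.9e-09 (log2 -0.67), and without slice 1 it was 0.0095 (log2 -0.72). Its value also depended on the clustering. It was -0.31 with clusters built without hair keratins, -0.20 with clusters from all genes and -0.11 at a resolution of 0.6. Without the spot filter its sign turned (log2 0.34). It was called under none of these settings (adjusted p = 0.45 to 0.84, by edgeR).

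Of the high-glycine-tyrosine genes, 15 of 17 were higher in the *Gm11596* cluster and none lower, by edgeR (16.3% of all genes were higher and 13.8% lower). Of the 14 hair keratins tested, 2 were higher and 8 lower. Hair keratins, unlike *Krtap* genes, took part in the clustering, and most are markers that named the matrix-like region. Their counts are therefore no independent result. *Krt85* was not analysed here.

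**Figure D3:**
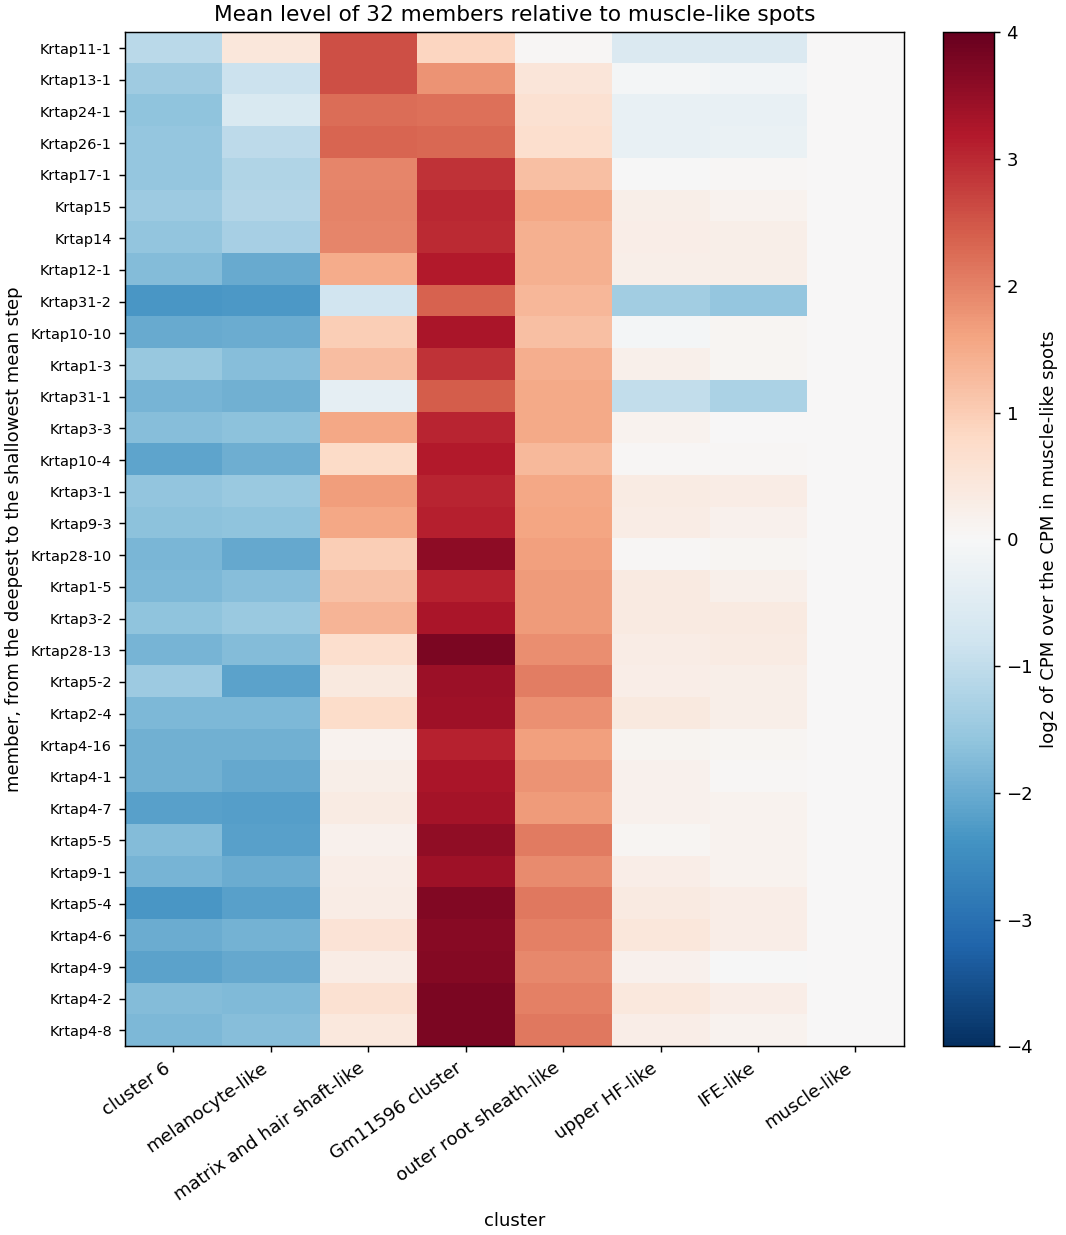
Mean CPM of 32 members (rows, from the deepest mean step to the shallowest) in 8 regions and clusters (columns), as log2 of the ratio to muscle-like spots (color). *Krtap11-1*, *Krtap13-1*, *Krtap24-1* and *Krtap26-1*, the deepest rows, are highest in the matrix-like column and the other 28 in that of the *Gm11596* cluster.

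Away from the follicle, the IFE is the outer layer of skin and the muscle lies under it, and neither makes hair shaft. Of the 32 members tested, 23 were higher in the matrix-like region than in IFE-like spots (27.5% of all genes were) and none was lower (29.2% were; 0 at an unadjusted p under 0.05, and 0 by DESeq2), by edgeR's quasi-likelihood test. Against muscle-like spots the counts were 23 higher and 0 lower (27.2 and 28.1% of all genes; again 0 lower at an unadjusted p under 0.05 and by DESeq2). With the slice as a block, 27 were higher than in muscle-like spots (29% of all genes were) and 1 was lower (30% were), *Krtap31-2*. It had a log2 value of -0.63 (adjusted p = 0.12) without the block and of -0.67 (adjusted p = 0.0055) with it. It was called lower, too, with clusters built without hair keratins (-0.88), at a resolution of 0.6 (-0.89), with no filter on low counts (-0.63) and with cluster 9 joined to the ORS-like region (-0.63). The 2 comparisons share the matrix-like spots. The summed IFE markers stood at 23280 to 27094 CPM in IFE-like and 1232 to 1487 CPM in matrix-like spots, and muscle markers at 31715 to 34496 CPM in muscle-like and 433 to 680 CPM in matrix-like spots. Fibroblast markers summed to more than the IFE markers in IFE-like spots (33926 to 41280 CPM) and stood at 9729 to 11499 CPM in muscle-like and 1259 to 2038 CPM in matrix-like spots. Immune markers stood at 1590 to 2138, 144 to 210 and 48.5 to 117 CPM in that order. The part of these in the results was not tested. The median log2 fold changes were 1.04 and 1.00 over the members and 0.00 and -0.04 over all genes.

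*Krtap11-1* had the largest log2 value against the IFE and about the same as *Krtap13-1* against muscle. It stood at 642, 359, 454 and 347 CPM in IFE-like spots and 879, 632, 621 and 566 CPM in muscle-like spots (log2 3.33 and 2.69, SE 0.21 each, adjusted p = 3.8e-15 and 4.1e-13). *Krtap13-1* had log2 values of 2.82 and 2.68 (adjusted p = 9.7e-09 and 1.8e-08), *Krtap26-1* 2.77 and 2.44, and *Krtap24-1* 2.68 and 2.36. *Krtap17-1*, *Krtap15* and *Krtap14* lay between 1.90 and 2.12 in both comparisons, and *Krtap3-3* had 1.70 and 1.67. *Krtap4-1* stood at 391, 249, 421 and 297 CPM in IFE-like spots, a range that overlaps its 283 to 470 CPM in the matrix-like region (log2 0.33, adjusted p = 0.075). Its muscle-like level gave a log2 value of 0.33 too (adjusted p = 0.076), and with the slice as a block both were called (adjusted p = 0.0040 and 0.0049).

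The calls in both comparisons depended on the clustering. Against the IFE, 8 of the 23 calls were lost when clusters were built from all genes, at a coarser resolution, or without the spot filter. At the coarser resolution only 14 members stayed higher, and 1 was called lower instead. Against muscle, these settings lost 7, 8 and 6 of the 23 calls. Clusters built without hair keratins lost 6 and 4. The share of all genes called under these settings was not taken. *Krtap28-13* stood at 79.8, 49.5, 47.1 and 64.5 CPM in the matrix-like region and 43.1, 39.6, 60.9 and 48.1 CPM in IFE-like spots, where the groups overlap (log2 0.54, adjusted p = 0.0043), and this call was lost without slice 1 (log2 0.26, adjusted p = 0.17). Leaving out slice 1 also lost *Krtap4-2*, *Krtap4-6* and *Krtap4-9*, leaving out slice 2 lost *Krtap4-6* and *Krtap4-9*, and leaving out slice 4 lost *Krtap4-2*, *Krtap4-6* and *Krtap4-8*. The direction of *Krtap28-13* turned under those clusterings (log2 -0.33, -0.34 and -0.19).

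Within the matrix-like region, spots were ordered by late over early hair keratins (*Krt31*, *Krt33a*, *Krt33b*, *Krt34*, *Krt81*, *Krt83* and *Krt86* over *Krt35*) and cut into 3 groups of near-equal size in each slice, to follow hair differentiation. Of the 30 members tested, 27 were higher in late-keratin than in early-keratin spots (11.1% of all 7729 genes were), 0 lower (3.79% were; 0 at an unadjusted p under 0.05, and 0 by DESeq2) and 3 passed in neither direction, by edgeR. Without the spot filter 11 of these calls were lost and 16 members were higher (7% of all 7599 genes tested were) and none lower (1.63% were). Clusters from all genes lost 5 calls and an order without clusters lost 4, and for these the share of all genes called was not taken. The medians were 1.56 over the members and -0.05 over all genes. The summed matrix and hair shaft markers, which include the keratins used for the order, moved with it, from 16602 to 21602 CPM in early-keratin spots to 43466 to 63848 CPM in late-keratin spots. Melanocyte markers went from 542 to 688 CPM to 179 to 336 CPM, and adipose markers from 1660 to 2041 CPM to 2493 to 3206 CPM. The part of these in the results was not tested.

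*Krtap13-1* had the largest change of the named members, at 2037, 1634, 1270 and 984 CPM in late-keratin spots and 399, 283, 248 and 199 CPM in early-keratin spots (log2 2.63, SE 0.25, adjusted p = 4e-07). *Krtap15* was at 11499, 9369, 7510 and 5641 CPM against 2432, 1943, 1852 and 1718 CPM (log2 2.35), and *Krtap14* had a log2 value of 2.38. No early-keratin value of these 3 members reached a late-keratin one. *Krtap3-3* (log2 2.23), *Krtap9-3* (log2 2.31) and *Krtap12-1* (log2 2.12) were close to them. *Krtap11-1* already had 2364, 2152, 2644 and 2253 CPM in early-keratin spots, and rose to 6615, 5709, 5465 and 5876 CPM (log2 1.57, SE 0.15, adjusted p = 3.8e-07). *Krtap4-1* rose less, from 298, 219, 218 and 384 CPM to 665, 366, 509 and 458 CPM (log2 1.09, SE 0.20, adjusted p = 0.00048). The cuticle member *Krtap10-10* was at 298, 162, 175 and 140 CPM against 76.8, 57.1, 47.3 and 71.5 CPM (log2 1.87, adjusted p = 9.5e-06). *Krtap5-4*, *Krtap5-5* and *Krtap31-1* did not pass the test, with log2 values of 0.59, 0.78 and 1.23. With the slice as a block these 3 were higher as well (12.5% of all 8564 genes tested were higher and 6.42% lower).

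Distance from the skin surface was counted as the number of steps between neighboring spots to the closest IFE-like one. Sections lie close together on a slice, so that spot can belong to another section. A step count can therefore understate the depth within a spot's own section. From step 0 to step 8 the members stood at 8152, 9475, 20909, 42973, 34764, 15750, 6357, 5146 and 6074 CPM, means of 4 slices. Their level was highest at step 3 (SD 6750 CPM). The composition of the steps changed along this axis. Step 3 held 45.8% ORS-like and 28.6% *Gm11596* cluster spots, step 4 held 43.8% *Gm11596* cluster and 25.7% matrix-like spots, and step 5 held 43.0% matrix-like and 18.0% melanocyte-like spots.

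By subfamily, 10 peaked at step 3, 6 at step 4 and 1 at step 5, of 17 with a member above 100 UMIs. *Krtap4* stood at 10764, 9554, 11800 and 9845 CPM at step 3, its peak in all 4 slices, and at 1556 ± 434 CPM at step 5. *Krtap11* had 2785, 2263, 2038 and 1824 CPM at step 5, its peak in all 4 slices, and 955 ± 323 CPM at step 3. The cortex subfamilies *Krtap1* (4087 ± 789 CPM), *Krtap3* (7370 ± 1973 CPM) and *Krtap9* (4455 ± 679 CPM) peaked at step 3 in every slice, as did *Krtap28*, with 592 ± 20.8 CPM. The type I hair keratins peaked at step 4, and at step 5 in slice 2. The subfamilies peaking at step 4 were *Krtap10*, *Krtap12*, *Krtap13*, *Krtap17*, *Krtap24* and *Krtap26*. *Krtap10* peaked at step 3 in slice 1, *Krtap13* and *Krtap24* at step 5 in slice 2, *Krtap14* at step 4 in slices 2 and 4, and *Krtap31* at step 4 in slice 2.

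**Figure D4:**
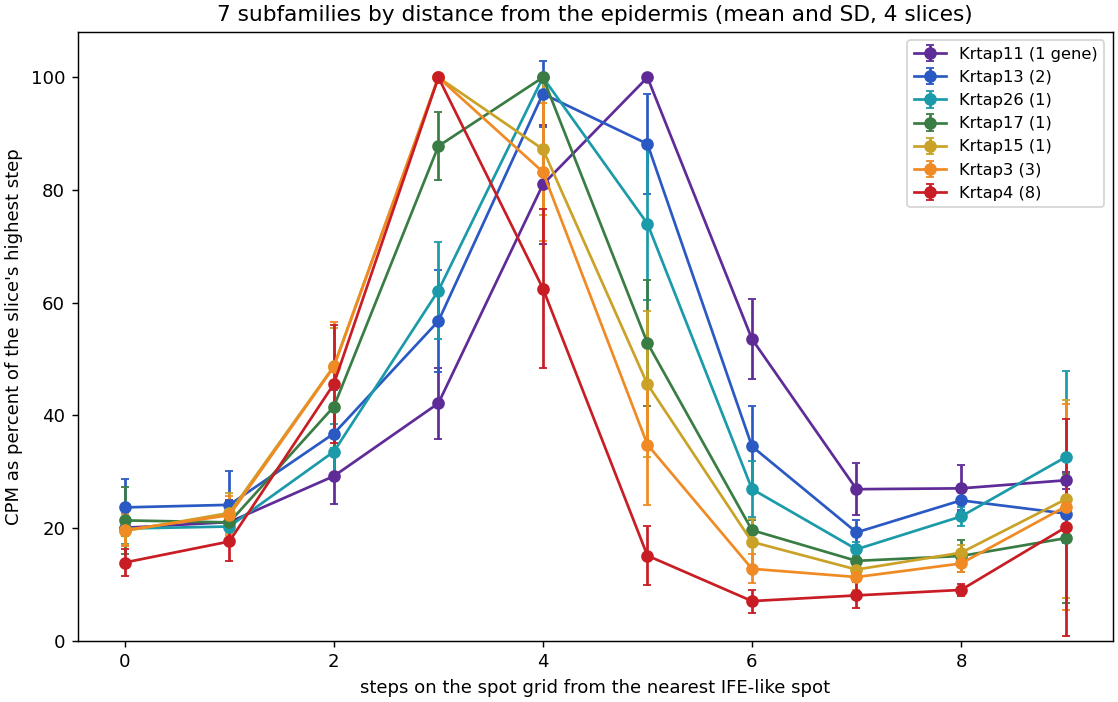
CPM of 7 subfamilies (y axis, percent of the highest step of each slice; points and bars are mean and SD of 4 slices) by steps to the closest IFE-like spot (x axis). *Krtap4*, *Krtap3* and *Krtap15* peak at step 3, *Krtap13*, *Krtap17* and *Krtap26* at step 4, and *Krtap11* at step 5.

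The mean step, weighted by UMIs, was 3.52, 4.00, 3.52 and 3.62 for the members in slices 1 to 4 (3.67 ± 0.23). All UMIs averaged step 4.25, type I hair keratins 4.36, type II 4.27 and the high-glycine-tyrosine genes 3.75. *Krtap11* was deepest at 4.57, *Krtap13* followed at 4.24, *Krtap24* at 4.20 and *Krtap26* at 4.16. *Krtap17* lay at 3.86 and *Krtap14* and *Krtap15* at 3.73 each. The shallowest were *Krtap2* at 3.43 and *Krtap4* and *Krtap5* at 3.39 each. Set against all members within a slice, *Krtap11* lay deeper by 0.91 ± 0.12 steps, *Krtap13* by 0.57 ± 0.10 and *Krtap17* by 0.19 ± 0.05, and *Krtap4* lay at -0.28 ± 0.04.

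Several neighbors in this order differed by more than the SD of their difference within slices: *Krtap11* above *Krtap13* (0.33 ± 0.05), *Krtap26* above *Krtap17* (0.30 ± 0.06), *Krtap17* above *Krtap15* (0.13 ± 0.03), *Krtap12* above *Krtap10* (0.05 ± 0.04), *Krtap3* above *Krtap1* (0.04 ± 0.01), *Krtap1* above *Krtap9* (0.04 ± 0.02), *Krtap28* above *Krtap2* (0.09 ± 0.06) and *Krtap2* above *Krtap4* (0.04 ± 0.03). The other neighbors did not differ beyond it.

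The cysteine content of the coding sequence ran with these patterns. The 6 members above 100 UMIs with under 15% cysteine codons (*Krtap11-1*, *Krtap13-1*, *Krtap14*, *Krtap15*, *Krtap24-1* and *Krtap26-1*) all lie on chromosome 16 and had mean steps of 3.73 to 4.57 (median 4.18). The other 26 held 20.2 to 42.9% and had mean steps of 3.35 to 3.86 (median 3.50). In the *Gm11596* cluster against the matrix-like region, the former had log2 values of -1.58 to 1.14 (median 0.07) and the latter 1.06 to 3.52 (median 2.99). The limit of 15% was chosen after the values were seen, and locus and cysteine content cannot be told apart for these 6.

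Across the 32 members, Spearman's rho between cysteine share and mean step was -0.78, and over the 26 members off chromosome 16 it was -0.63. Over 17 subfamily means it was -0.74. For the log2 fold change of the *Gm11596* cluster against the matrix-like region, rho was 0.81 over the 32 members and 0.68 off chromosome 16. For the log2 fold change of late-keratin against early-keratin spots, rho was -0.79 over 30 members and -0.76 off chromosome 16 (24 members). These are descriptions across genes, which share libraries, loci and near-identical copies and are not independent replicates.

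**Figure D5:**
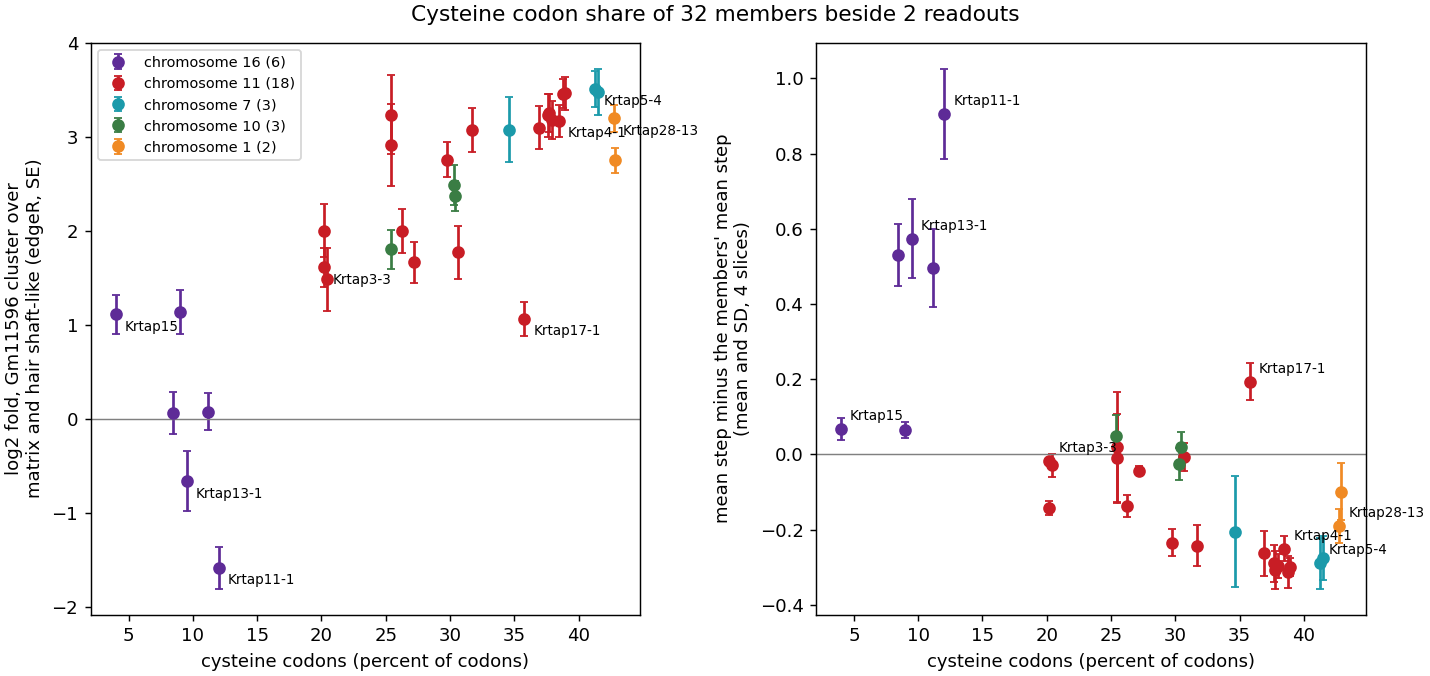
Cysteine codons of 32 members (x axes, percent of codons) beside the log2 fold change of the *Gm11596* cluster over the matrix-like region (left, edgeR with SE) and the difference of each member's mean step from that of all members (right, mean and SD of 4 slices), colored by chromosome. The 6 chromosome 16 members lie at the low end of both x axes, and *Krtap17-1* lies off the run of the others in both panels.

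Regulators of hair shaft formation, enzymes that modify hair proteins and genes of cysteine and disulfide handling were taken as a list of 43, of which 42 were among the features. *S100a3*, *Lef1*, *Hoxc13* and *Msx2* on this list are also markers used to name the matrix-like region. Differences of these genes between that region and others are therefore no independent results. Against the ORS-like region, 27 were higher (24.3% of all genes were), 6 lower (26.5% were) and 9 passed in neither direction, by edgeR. *S100a3*, a calcium-binding protein of the hair cuticle, differed most (8695 ± 866 CPM against 1644 ± 209 CPM, log2 2.61), and *Gclc*, an enzyme of glutathione synthesis, and *Qsox1*, which forms disulfide bonds, were lower at log2 -0.83 each. In the *Gm11596* cluster against the matrix-like region, 9 were higher (16.3% of all genes were), 17 lower (13.8% were) and 16 in neither direction. *Cbs*, which acts in cysteine synthesis, was higher there (log2 1.10, adjusted p = 1.3e-07), and *Lef1*, a Wnt pathway transcription factor of the matrix, was lower (log2 -1.36, adjusted p = 3.4e-08). Along the keratin order, 10 were higher in late-keratin spots (11.1% of all genes were), 5 lower (3.79% were) and 24 in neither direction, of 39 tested. *Cth*, also of cysteine synthesis, stood at 60.8 CPM in late-keratin and 24.8 CPM in early-keratin spots (log2 1.56, adjusted p = 9e-06), and *Selenbp1*, a selenium-binding protein, at 8.96 and 32.7 CPM (log2 -1.74, adjusted p = 0.0012).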

How the data were processed

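The deposited UMI counts per gene and spot were made by the authors with Space Ranger 2.0.1 on the mm10 genome, 1 matrix per slice, and were not normalized. No column of another sample was present. Spots with at least 250 genes were kept (6411 of 6420). Clusters were built with Seurat 5.3.0 without *Krtap* genes, giving 12 clusters, 2 of them upper HF-like. The UMI counts of a region were added up in each slice, and these sums were compared in edgeR 4.0.16 (quasi-likelihood test, TMM scaling, filterByExpr), with p-values adjusted by Benjamini-Hochberg over all genes tested and a threshold of 0.05. CPM values are UMIs per 1000000 of the same sum. UMIs tag the 3' end and were not divided by length, so levels of different genes were not tested against each other. The replicate numbers pair the regions, since regions of a slice share its library. The deviations of a slice's regions from the region means correlated at 0.131 to 0.278 on average (15 pairs of regions a slice, lowest 0.0923, 9347 genes). The fit was tested on simulated data. Coordinates and coding sequences are of GENCODE M21. The members named by rule were the 12 with the most UMIs, the most abundant of each subfamily and the 5 with the largest rise along the keratin order (23 in all); other members were named after their values were seen. Of the other genes, markers and those with the largest change each way were named. Members and lists were chosen with earlier results of these data known. DESeq2 1.42.0, other clusterings, scalings, filters and left-out slices were tried as alternatives. Thinned shares used 5500 UMIs a spot. R 4.3.3, Python 3.11.15 and SciPy 1.17.1 were used.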

Additional observations from a re-analysis of the deposited data

Results flagged for a closer look

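Of 111 sets of 4 slice values of named members, 11 had a slice farther from the rest than Dixon's limit for the gap over the range, and chance alone marks about 1 in 20. In all 11 it was slice 1, the deepest. In ORS-like spots the ratio was 0.962 for *Krtap15* (4039 CPM in slice 1, 3275 to 3305 CPM in the others), 0.914 for *Krtap3-1* (1923 against 944 to 1029 CPM), 0.869 for *Krtap3-2* (1532 against 905 to 987 CPM), 0.948 for *Krtap12-1* (156 against 103 to 105 CPM) and 0.904 for *Krtap31-1* (208 against 36.8 to 53.2 CPM). In the muscle-like region it was 0.873 for *Krtap3-1* (702 against 293 to 345 CPM), 0.868 for *Krtap3-2* (503 against 261 to 293 CPM) and 0.949 for *Krtap5-4* (37.2 against 25.2 to 25.8 CPM). In matrix-like spots it was 0.894 for *Krtap3-2* (1379 against 661 to 737 CPM) and 0.918 for *Krtap10-10* (157 against 104 to 108 CPM), and in the IFE-like region 0.870 for *Krtap24-1* (34.8 against 20.4 to 22.2 CPM).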

How the results depend on the processing

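Of 229 alternative values of the counts and levels, 209 kept their direction and size and 20 moved. Clusters from all genes, a resolution of 0.6 and no spot filter gave 15, 14 and 15 members higher than in IFE-like spots, and a resolution of 0.6 gave 1 lower. A resolution of 0.6 gave 15 higher than in muscle-like spots, and 1 was lower there with that setting, with no filter on low counts, with the replicate block, with clusters built without hair keratins and with the slice 1 cluster joined to the outer root sheath. Without the spot filter 16 were higher in late-keratin spots. Scaling by library size alone, no filter on low counts, the replicate block and leaving out slice 1 each gave 2 members lower in the *Gm11596* cluster. The share of all genes called was taken only for the block against muscle and for the keratin order without the spot filter. The other counts here cannot be judged beside it. The matrix-like level was 16610 CPM at a resolution of 0.6, 29073 CPM without clusters and 17789 CPM without the spot filter, the ORS-like level 27578 CPM without clusters, and the mean step then 4.00. Without clusters the *Gm11596* cluster has no value. Reversed values were those of *Krtap9-3* against the outer root sheath (log2 -0.43 with clusters from all genes, -0.47 without the spot filter) and of *Krtap10-10* there (-0.83, -0.72 at a resolution of 0.6, and -0.62), and those of *Krtap4-2* (-0.076, -0.16, -0.024) and *Krtap28-13* (-0.33, -0.34, -0.19) against the IFE, and of *Krtap28-13* against muscle (-0.073, -0.092). *Krtap13-1* in the *Gm11596* cluster also turned without the spot filter (log2 0.34), though it was called in neither fit. The cause of these changes was not tested. All alternatives for the *Gm11596* cluster, and the joining of the slice 1 cluster, were chosen after seeing the data.

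With the slice number as a replicate block, which pairs regions of the same library, 28 members were called against the outer root sheath, 28 against the IFE, 2 were lower in the *Gm11596* cluster and 1 lower than in muscle. For the IFE and the *Gm11596* cluster the share of all genes called with the block was not taken. Those counts therefore cannot be judged beside it. Leaving out each slice in turn gave 6 to 7 members higher and 15 to 18 lower against the outer root sheath, 20 to 25 higher against the IFE, 22 to 23 against muscle, 27 to 30 along the keratin order and 28 higher with 1 to 2 lower in the *Gm11596* cluster, with none lower against IFE, muscle or along the keratin order. The levels then ranged over 59853 to 65243 CPM in the *Gm11596* cluster, 20658 to 24458 CPM in matrix-like, 20323 to 22850 CPM in ORS-like, 7229 to 8845 CPM in IFE-like and 6773 to 8078 CPM in muscle-like spots, and the mean step over 3.55 to 3.72. Scaling by library size alone shifted the median log2 value of all genes by -0.22, -0.17 and -0.11 against the outer root sheath, IFE and muscle, by -0.12 in the *Gm11596* cluster and by -0.24 along the keratin order. It left 7 higher and 18 lower, 18 and 0, 22 and 0, 28 and 2, and 27 and 0 in that order. For the left-out slices and this scaling, the share of all genes called was not taken. These counts of members therefore cannot be judged beside it. Of 1594 alternative values of single named members, 1482 kept their side of the threshold, 45 lost a call, 54 gained one and 13 were labelled reversed. A turn of sign called in neither fit can lie outside the 13. That of *Krtap13-1* in the *Gm11596* cluster without the spot filter (log2 -0.66 to 0.34) is not among them. Signal of members at or under 100 UMIs was too low to test.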
